A study of Mus musculus with 2 samples.

Results

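miR-199 and miR-214 are microRNAs whose main source in the mouse is 1 long non-coding transcript, Dnm3os, which runs antisense inside the dynamin gene Dnm3. The 5 members described here are the hairpins Mir199a-1, Mir199a-2, Mir199b and Mir214 and the host transcript Dnm3os, of 27471 genes with a matched read. The 4 hairpins are among 1173 miRNA hairpins with a read. Members were taken by annotation and not by their values: reads of 18 nt or longer that lay in sense, without mismatch, in a GENCODE hairpin or in a Dnm3os transcript were counted, then split by arm, by length and by whether 1 hairpin or several could have given them. The 5p arm is the side of the hairpin nearer its 5′ end and the 3p arm the other side.

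Small RNAs were sequenced from mouse mesenchymal stem cells, a fibroblast-like cell of adult bone marrow, of strain C57BL/6. The null library came from an immortalized line that was Dicer -/-, and the f/f library from an immortalized line that was Dicer f/f, which the labels treat as wild type. Both lines were monoclonal, so a difference between genotypes and a difference between clones cannot be told apart. Both were kept in alpha-MEM to which 10% fetal bovine serum was added, were harvested shortly before confluence without a further treatment, and RNA of 15 to 50 nt was cut from a gel. There was 1 library per genotype, so no difference below has a replicate check and no test between genotypes was made. The agent or promoter that removed Dicer is not given in the labels.

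Most animal miRNAs are made in a pair of cuts. In the nucleus, Drosha with its partner DGCR8 releases a hairpin from the primary transcript, which sets the 5′ end of the 5p arm and the 3′ end of the 3p arm. In the cytoplasm, Dicer removes the loop, which sets the 3′ end of the 5p arm and the 5′ end of the 3p arm, and Argonaute keeps 1 strand of the resulting duplex. miR-199 and miR-214 are typical of mesenchyme and fibroblasts, and Twist1 is known to drive the Dnm3os promoter in mouse.

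The mature sequences of the Dnm3os hairpins are shown first because the results turn on their ends. They were taken from RefSeq (GRCm38.p6), which held all 4 hairpins and 7 mature entries for them. Capitals mark the seed, bases 2 to 8.
miR-199a-5p: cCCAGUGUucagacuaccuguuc
miR-199a-3p: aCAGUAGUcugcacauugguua
miR-214-5p: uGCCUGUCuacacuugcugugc
miR-214-3p: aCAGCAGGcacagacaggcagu
No pair of these seeds is identical. miR-199-3p and miR-214-3p share 5 of 7 seed bases (the substitutions from miR-199-3p to miR-214-3p, counted from the 5′ end, are T5C and T8G) but only 8 of 22 bases over the whole arm without gaps.

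The hairpins inside Dnm3os are printed whole, with the commonest f/f read of each arm in capitals, so that the reads described below can be placed on them.
Mir199a-2: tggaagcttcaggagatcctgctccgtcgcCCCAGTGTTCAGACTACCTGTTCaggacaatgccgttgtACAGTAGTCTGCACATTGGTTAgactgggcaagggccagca
Mir214: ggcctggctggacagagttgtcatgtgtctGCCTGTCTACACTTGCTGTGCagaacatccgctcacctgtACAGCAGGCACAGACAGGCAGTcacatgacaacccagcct
In GRCm38, Mir199a-2 lies at chr1:162217814-162217923 and Mir214 at chr1:162223368-162223477, both on the plus strand and both overlapping exons of Dnm3os (chr1:162217623-162225550, plus strand, 6 transcripts). Dnm3os itself lies within Dnm3, which is on the minus strand. Mir199b lies at chr2:32318460-32318569 on the plus strand, within an intron of Dnm1, which is on the minus strand. Mir199a-1 lies at chr9:21496495-21496564 on the minus strand, within an intron of Dnm2, which is on the plus strand. In each case the dynamin gene runs the other way.

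The null library held 6291599 reads and the f/f library 9943989. Levels are given as CPM, reads scaled to the total of the library, and a count of 0 allows up to 0.477 CPM in null and 0.302 CPM in f/f (3 counts). Intervals are exact 95% intervals in brackets, cover counting error at most and treat each read as independent. PCR reads without molecular identifiers are not independent molecules, so these intervals can be too narrow even for that error. Scaling to transcript-matched reads would add 1.75 to every log2 ratio of null to f/f, and scaling to snoRNA and snRNA reads would add -2.12. Dicer1 gave 23 reads of its own in null and 2 in f/f, which checks nothing, since the labels do not say which exons were deleted. Fragments of the 6 mesenchymal mRNAs examined (Col1a1, Col1a2, Col3a1, Vim, Fn1 and Sparc) summed to 1622 reads in null and 143 in f/f. This side was common to long transcripts, with 97.3% of 858 mRNA and lncRNA genes over 2-fold higher in null. The 7 mesenchymal miRNAs examined, Mir199a-2 and Mir214 among them, went the other way. They summed to 31283 reads in null and 1885272 in f/f, and all 7 had a lower CPM in null. That side was common to miRNAs. Of 405 hairpins with at least 100 reads in both libraries together, 64.4% were more than 2-fold lower in null. Of 314 miRNA species with 100 or more reads in f/f, 87.9% were. Whether mesenchymal identity differed between the lines was not tested. The 16 markers of other cell types summed to 216 reads in null and 2684 in f/f, of which the muscle miRNA Mir206 had 1 and 2236. By CPM, 6 of the 16 were higher in null, 5 lower, and Ptprc, Epcam, Mir1a-1, Mir302b and Mir290a were at 0 in both libraries. The epithelial list summed to 99 reads in null and 10 in f/f (Mir141 had 55 and 1, Mir200c 44 and 9), and the blood list to 68 in null and 20 in f/f (Mir223 had 38 and 9, Mir142 30 and 11). The endothelial list summed to 14 reads in null and 337 in f/f (Mir126a had 13 and 333), and the neural list to 5 in null and 62 in f/f. The liver miRNA Mir122 had 22 reads in null and 18 in f/f. The part of other cell types in the results below was not tested. In bulk RNA, fewer expressing cells and less RNA per cell cannot be told apart.

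The 2 arms of miR-199 differed far more in null cells than in f/f cells. miR-199-3p, whose reads fit all 3 Mir199 hairpins, had 77 reads (12.2 CPM) in null and 246116 reads (24750 CPM) in f/f, and was 2022-fold lower in null (1618 to 2563). miR-199a-5p, whose reads fit both Mir199a hairpins, had 9302 reads (1478 CPM) in null and 188058 reads (18912 CPM) in f/f, and was 12.8-fold lower in null (12.5 to 13.1). With species split by the hairpins that their reads fit, miR-199a-5p ranked 2 in null and 10 in f/f, and miR-199-3p ranked 134 in null and 7 in f/f. The null rank of miR-199a-5p depends on this split. Null reads of miR-16-5p were divided among Mir16-2 alone (6098), Mir16-1 alone (3102) and both hairpins (2078), and their sum exceeds the null reads of miR-199a-5p. For each 3p read there were 120.8 5p reads in null (96.6 to 153) and 0.764 in f/f (0.760 to 0.769). This ratio is taken within a library, so scaling between libraries does not enter it. It does depend on which reads count as an arm, since a read that runs far into the loop or flank fits Mir199a-2 alone and is outside both species. With reads that fit only some of the hairpins added, the 5p side had 10300 reads in null and 188124 in f/f, and the 3p side 219 in null and 246202 in f/f. The 3p side was then 711-fold lower in null (623 to 816) and the 5p to 3p ratio 47.03 in null (41.1 to 54.0) and 0.764 in f/f.

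The arms of miR-214 were closer. miR-214-5p had 530 reads (84.2 CPM) in null and 28853 (2902 CPM) in f/f, and was 34.4-fold lower in null (31.6 to 37.6). miR-214-3p had 145 reads (23.05 CPM) in null and 27932 (2809 CPM) in f/f, and was 122-fold lower in null (104 to 144). The 5p to 3p ratio was 3.66 in null (3.04 to 4.42) and 1.03 in f/f (1.02 to 1.05). Most of the null 5p reads were not the mature arm, as shown further on, and among mature forms the order of the arms in null turned over.

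**Figure D1:**
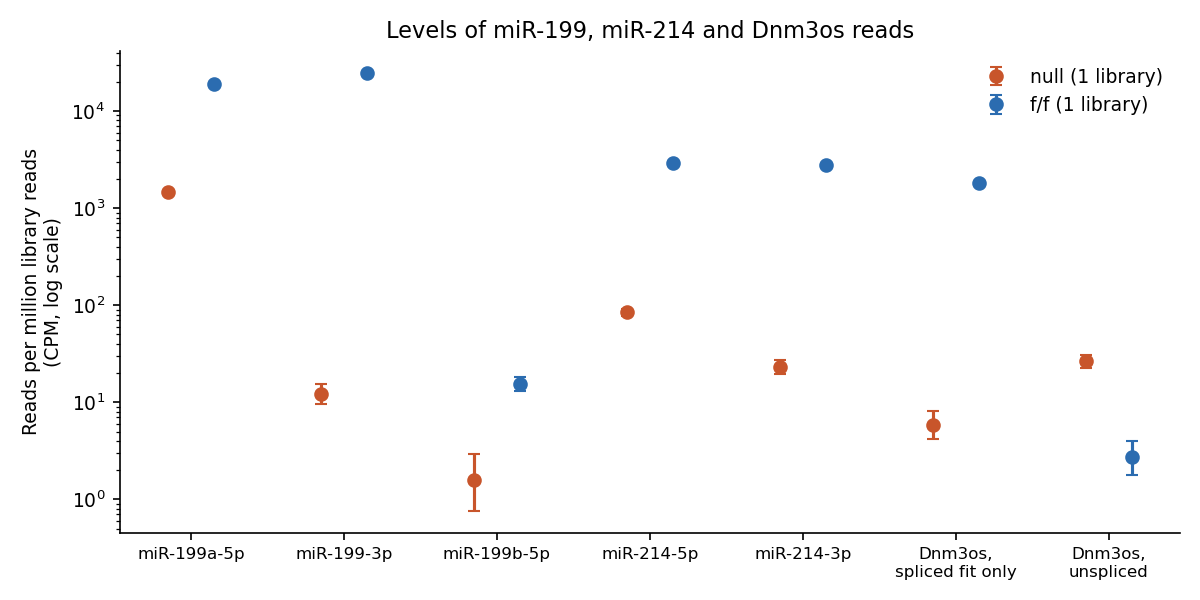
CPM (log axis) of the 5 miRNA species of the set and of Dnm3os reads outside the hairpins, with null left of f/f in each pair. Points are single libraries and bars exact 95% Poisson intervals of the count; miR-199-3p stands at 12.2 CPM in null and 24750 CPM in f/f, while unspliced Dnm3os fragments are the sole entry that is higher in null.

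Read against other miRNAs, a lower level in null was the rule. All 5 species of the set were more than 2-fold lower in null, as were 87.9% of the 314 miRNA species that had 100 or more reads in f/f; 5.41% of these were more than 2-fold higher in null, and none of the 5 was. At more than 10-fold there were 4 of the 5 (75.5% of all species), at more than 100-fold 2 of the 5, miR-199-3p and miR-214-3p (37.9% of all species), and at more than 1000-fold miR-199-3p alone (17.8% of all species). The median of all species was a log2 ratio of -5.22, between miR-214-5p at -5.11 and miR-214-3p at -6.93, with miR-199a-5p at -3.68, miR-199b-5p at -3.28 and miR-199-3p at -10.98. Together the 4 hairpins gave 11204 reads in null and 491265 in f/f, 27.7-fold lower in null (27.2 to 28.3). They made up 8.22% of all miRNA reads in null (8.07 to 8.36) and 8.29% in f/f (8.27 to 8.31).

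Of the 159 species that had 1000 or more reads in f/f, those without a null read were left out. Among the rest, the species with a log2 ratio nearest to each member were sought, over these 2 libraries alone. For miR-199-3p they were miR-22-3p, miR-365-3p and miR-140-3p, and for miR-199a-5p they were miR-423-5p, miR-22-5p and miR-99a-5p. For miR-214-5p they were miR-30a-5p, miR-872-5p and miR-98-5p, and for miR-214-3p they were miR-324-5p, miR-362-5p and miR-350-3p. Both arms of Mir22 stood beside the arms of miR-199 in this measure, with 129 null and 2860 f/f reads of miR-22-5p and 226 null and 724393 f/f reads of miR-22-3p.

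The copies of miR-199 can be told apart only by a few reads. miR-199b-5p differs from miR-199a-5p at a single base, C10T counted from the 5′ end of the miR-199a arm, and has the same seed, as its commonest f/f read shows.
miR-199a-5p: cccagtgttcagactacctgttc
miR-199b-5p: cccagtgtttagactacctgttc
It had 10 reads (1.59 CPM) in null and 154 (15.5 CPM) in f/f, and was 9.74-fold lower in null (5.16 to 20.7). It made up 0.0970% of the 5p reads of the family in null (0.0465 to 0.178) and 0.0818% in f/f (0.0694 to 0.0958). Of the 5p reads that fit 1 miR-199a hairpin and not the other, 997 of 998 in null and 66 of 66 in f/f came from Mir199a-2, the copy inside Dnm3os. Of the 3p reads that separate the copies, 142 of 142 in null and 83 of 86 in f/f came from Mir199a-2. The remaining 3 f/f reads fit Mir199a-1 alone (1 read) or Mir199a-1 and Mir199b (2 reads). Reads that separate copies must run past the mature arm, if only by 1 nt. In f/f, 61 of 66 5p and 76 of 83 3p reads of Mir199a-2 alone had both ends within 2 nt of the mature ends. In null, 994 of 997 such 5p reads ran more than 2 nt into the loop, and 132 of 142 such 3p reads began in it. These counts describe the separating reads alone, and the source of the mature reads shared by all copies was not tested.

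Read length separated the libraries on the 5p arm of miR-199a. Of its reads, 51.6% were 24 nt or longer in null and 0.428% in f/f. These reads must fit both Mir199a hairpins, and none was longer than 27 nt. With 5p reads that fit only some of the hairpins added, the share was 56.2% of 10300 in null and 0.459% of 188124 in f/f. The median over 197 species with at least 10 null reads was 64.3% in null and 0.543% in f/f, and 60.9% of those species had most of their null reads at 24 nt or longer, so this length shift was not particular to miR-199a-5p. miR-214-3p had 48.3% of its reads at 24 nt or longer in null and 0.809% in f/f. For miR-199-3p the rule itself bounds the length, since a read must fit all 3 hairpins, which share 26 nt around the arm (3 nt before it and 1 nt after it), and 10 of 77 null reads (13.0%) and 0.0195% of f/f reads were that long. Among 3p reads that fit Mir199a-2 alone they were 107 of 142 in null (75.4%) and 77 of 83 in f/f (92.8%), and with all 3p reads of the family together 53.4% of 219 in null (46.6 to 60.2) and 0.0520% of 246202 in f/f. miR-214-5p had 6.42% in null and 0.0555% in f/f, and in null it had most of its reads at 18 and 19 nt.

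**Figure D2:**
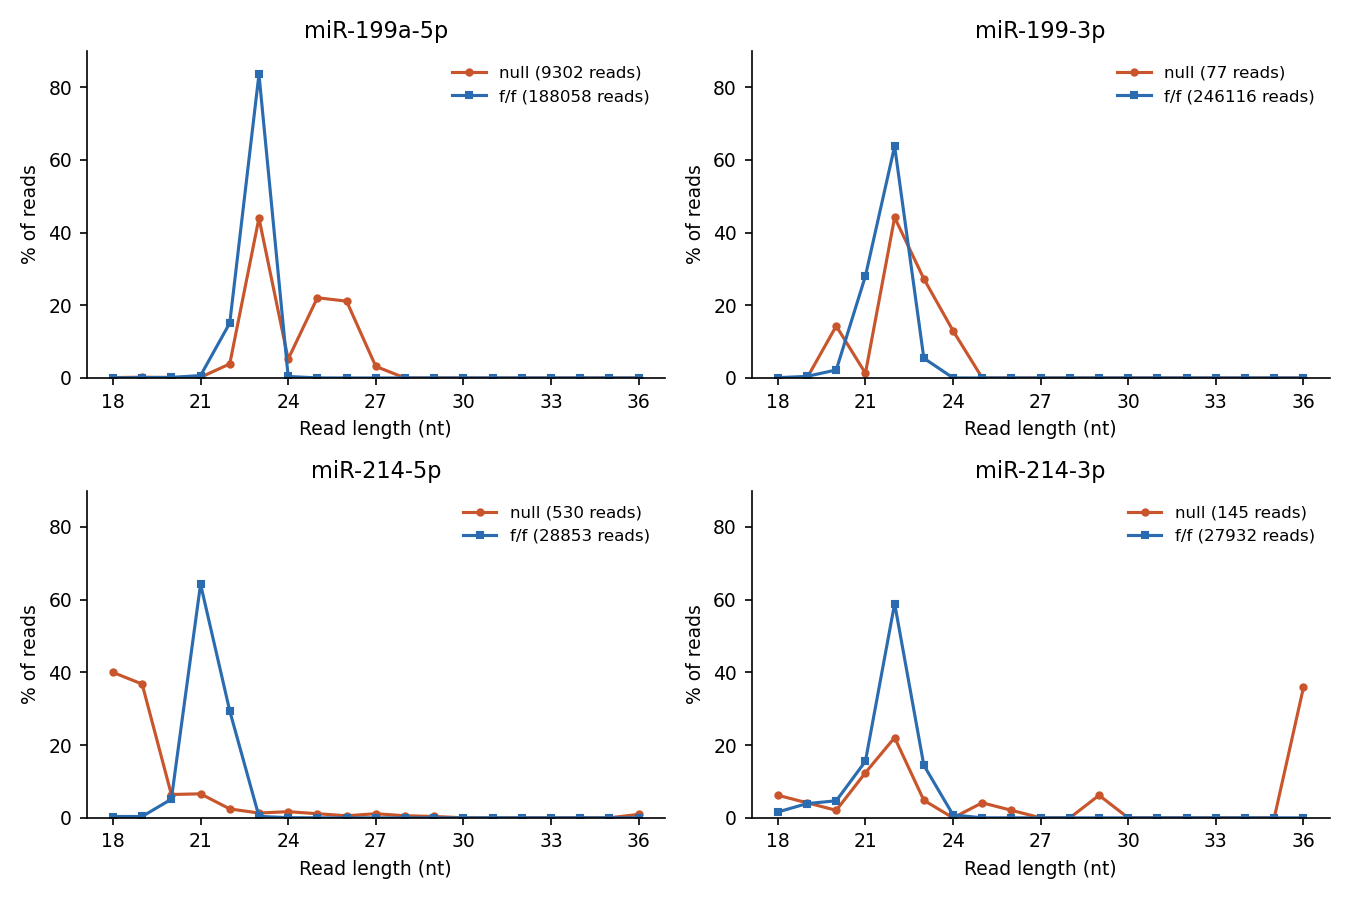
Read length in nt (x axis) against the percentage of a species' reads (y axis) in 1 null and 1 f/f library, for both arms of miR-199 and miR-214. miR-199a-5p has null peaks at 23, 25 and 26 nt and an f/f peak at 23 nt, and miR-214-5p has its null peak at 18 nt and its f/f peak at 21 nt.

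The longer null reads of miR-199a-5p kept the 5′ end that Drosha sets and ran on past the 3′ end that Dicer sets, into the loop. The 4 commonest are shown with the bases past the mature 3′ end in capitals.
3 nt longer: cccagtgttcagactacctgttcAGG
2 nt longer: cccagtgttcagactacctgttcAG
5 nt longer: cccagtgttcagactacctgttcAGGAC
1 nt longer: cccagtgttcagactacctgttcA
The read with AG had 1974 copies in null and 26 in f/f, and the read with AGG had 1947 in null and 5 in f/f. The read with AGGAC, which fits Mir199a-2 and not Mir199a-1, had 464 copies in null and 0 in f/f. The read with a single added A had 459 in null and 770 in f/f. The unextended 23-nt read was still the commonest miR-199a-5p sequence in null, with 4069 copies there and 157059 in f/f, 24.4-fold lower in null by CPM (23.7 to 25.2).

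The 5′ end was nearly the same in both libraries. On the 5p arm of miR-199a, 97.4% of null reads and 98.8% of f/f reads began at the commonest f/f base. The 3′ end of the same arm sat at the commonest f/f base for 44.6% of null reads and 84.5% of f/f reads. Among reads with a mature 5p start on Mir199a-2, 40.4% of 10275 in null and 84.5% of 187809 in f/f ended at the mature base, 19.5% in null and 0.0170% in f/f ended 2 nt past it, and 19.7% in null and 0.00266% in f/f ended 3 nt past it. Ends 1 nt short of it made up 2.73% in null and 14.5% in f/f.

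The 77 null reads of miR-199-3p fit all 3 hairpins, so they could not leave that shared stretch, and 76 of 77 lying with both ends within 2 nt of the mature ends follows in part from that rule. Counted apart, the 3p reads that fit Mir199a-2 alone numbered 142 in null, of which 132 ran from the loop into the 3p arm, and 83 in f/f, of which 2 did. The ends given next are those of miR-199-3p. The 5′ end, which Dicer sets on this arm, was at the commonest base for 54.5% of null reads (42.8 to 65.9) and 78.7% of f/f reads. Reads that began 1 nt earlier, whose bases 2 to 8 read ACAGTAG in place of CAGTAGT, were 29.9% in null (19.97 to 41.4) and 13.2% in f/f. Reads that began 2 nt earlier, with TACAGTA at bases 2 to 8, were 11 of 77 in null (14.3%). The 3′ end, which Drosha sets, was at the commonest base for 77.9% in null (67.0 to 86.6) and 68.9% in f/f.

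**Figure D3:**
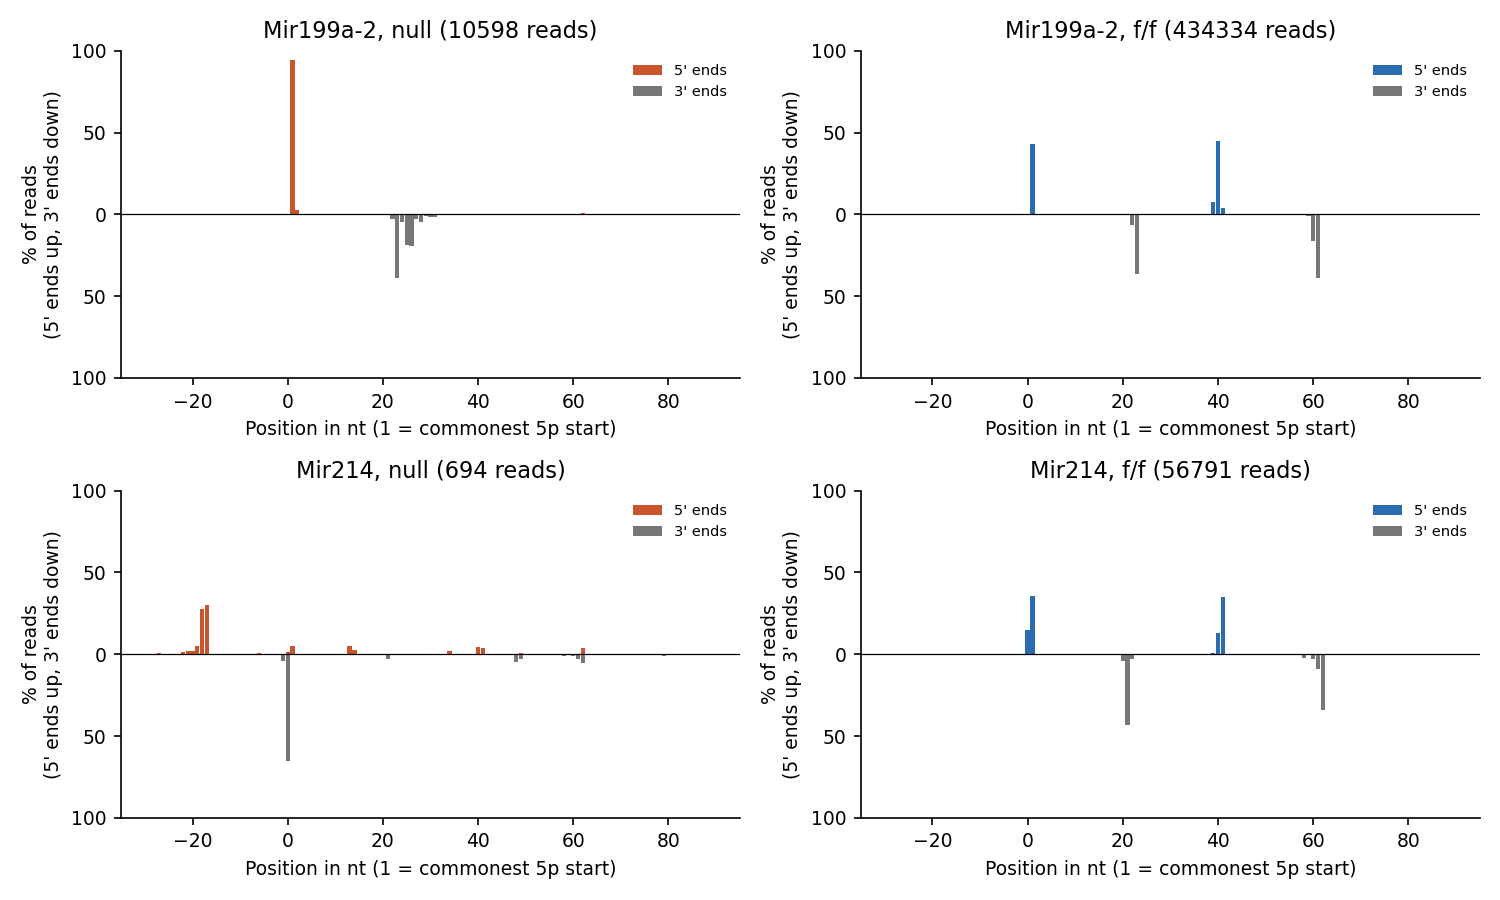
Percentage of reads (y axis) that begin (coloured bars, up) and end (grey bars, down) at each base along Mir199a-2 (top) and Mir214 (bottom), in null (left) and f/f (right); position 1 is the commonest f/f start of the 5p arm. In null, most Mir199a-2 reads begin at 1 site and end at several, and most Mir214 reads end at position 0, just before the mature 5p arm.

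All reads on Mir199a-2 and its flanks of 100 nt were then sorted by form. Mature 5p reads, with both ends within 2 nt of the commonest f/f ends, numbered 6911 in null and 187635 in f/f, 17.2-fold lower in null (16.8 to 17.6). 5p reads that ran more than 2 nt into the loop numbered 3334 in null and 11 in f/f, 479-fold higher in null (267 to 961), and still 110-fold higher (61.5 to 221) when scaled to snoRNA and snRNA reads. They were 32.4% of the reads with a mature 5p start in null and 0.00586% in f/f. Over 74 hairpins with enough such reads the median was 48.2% in null and 0.0163% in f/f, and extended reads were more than 50% in 41.9% of hairpins. Mir199a-2 ranked 52 of 74 by the null percentage and was not among them.

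Other Mir199a-2 forms were rarer. Reads that began in the loop and ended in the 3p arm, such as tgccgttgtacagtagtctgcacat, numbered 132 in null and 2 in f/f, 104-fold higher in null (28.3 to 870) and 23.999-fold higher (6.51 to 200.2) when scaled to snoRNA and snRNA reads. A further null read began in the 5p arm and ended in the 3p arm. Reads of the loop alone numbered 3 in null and 4 in f/f. Reads just past the 3p arm numbered 69 in null and 6 in f/f, 18.2-fold higher in null (7.94 to 51.2). Of these, 68 of 69 in null and 6 of 6 in f/f began at the base after the mature 3p end, chr1:162217905. The commonest is shown because it starts where the mature 3p arm ends.
3′ flank of Mir199a-2: gactgggcaagggccagcaacgc
It had 21 copies in null and 2 in f/f. Mature 3p reads numbered 76 in null and 245088 in f/f, and shortened 3p reads 0 in null and 1104 in f/f.

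At Mir214, most null reads came from the flank and not from an arm. Reads upstream of the 5p arm numbered 478 in null and 97 in f/f, 7.79-fold higher in null (6.25 to 9.79) and 1.79-fold higher (1.44 to 2.25) when scaled to snoRNA and snRNA reads. They were 68.9% of all reads on Mir214 and its flanks in null and 0.171% in f/f. The commonest pair are shown, since they were the leading miR-214-5p sequences in null by the arm rule.
18 nt: cagagttgtcatgtgtct
19 nt: acagagttgtcatgtgtct
The 18-nt read had 210 copies in null and 62 in f/f, and the 19-nt read 189 in null and 25 in f/f. Of the flank reads, 451 of 478 in null and 97 of 97 in f/f ended at chr1:162223397, the base before the commonest f/f start of miR-214-5p. That base is the first of the RefSeq arm, because the commonest f/f 5p read began 1 nt inside the RefSeq end: bases 2 to 8 read CCTGTCT in 70.5% of f/f reads and GCCTGTC, the RefSeq seed, in 28.6%.

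The 18-nt flank read also fits the gene Gm43658, so its source is uncertain. Without it, the upstream reads numbered 268 in null and 35 in f/f, 12.1-fold higher in null (8.49 to 17.7). Among 87 hairpins with at least 50 null and 100 f/f reads, 2.3% had more than 50% flank reads in null, namely Mir214 and Mir331. Mir214 had 72.3% (488 of 675), with the 18-nt read still counted. The median was 0 in both libraries. This count took only reads inside the annotated hairpin, without the 100 nt of flank used above, so the annotated length limits it. By it Mir199a-2 had 6 flank reads in null, and Mir199a-1, annotated over 70 nt, had 0 of 9380. Whether Mir214 differs from hairpins annotated with as much flank was not tested.

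With the flank set aside, little mature miR-214 was left in null. Mature 5p reads numbered 25 in null and 28678 in f/f, 726-fold lower in null (492 to 1122), and mature 3p reads 54 in null and 26119 in f/f, 306-fold lower in null (234 to 407). The 5p to 3p ratio of mature forms was 0.463 in null (0.276 to 0.757) and 1.10 in f/f (1.08 to 1.12), so the 3p arm led in null by this count and the 5p arm by the count of whole arms. For miR-199 the same ratio of mature forms was 90.9 in null (72.6 to 116) and 0.766 in f/f (0.761 to 0.770).

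Of the 145 null reads on the 3p side of Mir214, 52 began inside the 5p arm, spanned the whole loop and ended in the 3p arm (35.9%), against 0 of 27932 in f/f. All 52 were 36-nt reads, the longest length in the files, so their true 3′ ends are not seen. The commonest is shown.
Mir214, 5p arm to 3p arm: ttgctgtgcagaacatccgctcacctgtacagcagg
It had 34 copies in null and 0 in f/f. Reads of the loop alone went the other way, with 0 in null and 52 in f/f, of which 48 ran exactly between the commonest ends of the arms. Reads that began in the loop and ended in the 3p arm numbered 8 in null and 6 in f/f. A 29-nt read that began 7 nt before the mature 3p start had 9 copies in null and 0 in f/f. 5p reads extended into the loop numbered 19 in null and 9 in f/f, too few to give a direction that holds under every scale. Reads past the 3p arm numbered 29 in null and 6 in f/f. Of these, 26 of 29 in null and 6 of 6 in f/f began at the last base of the mature 3p arm, chr1:162223459.

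**Figure D4:**
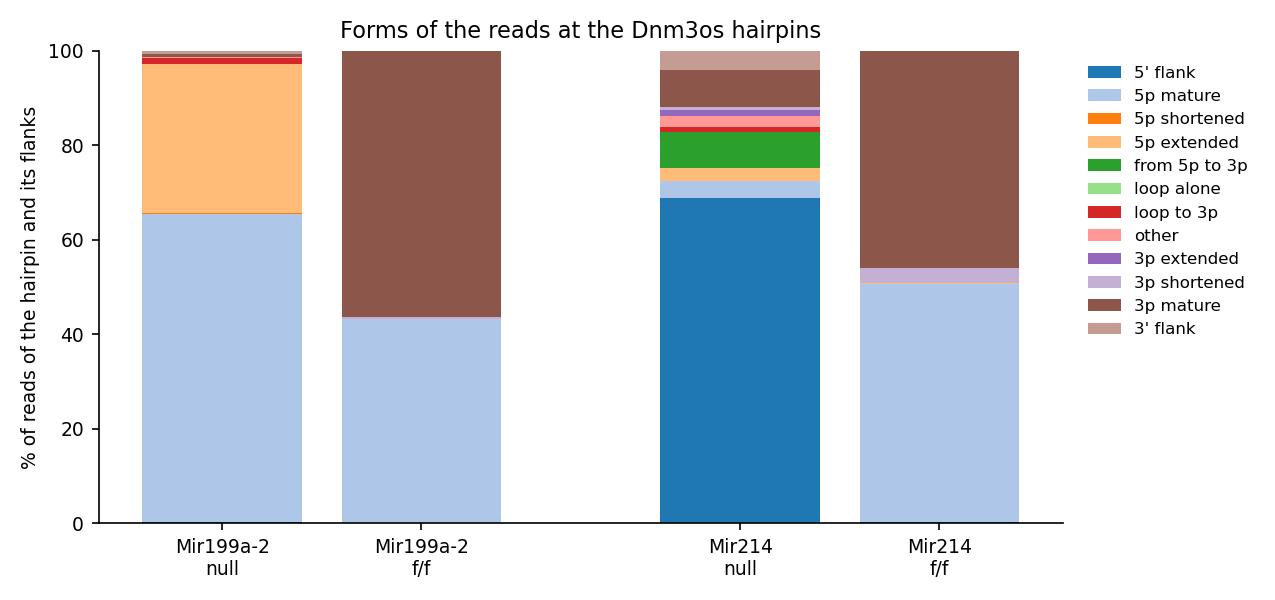
Composition of the reads on Mir199a-2 and Mir214 and their flanks by form, as percentages of all such reads in 1 null and 1 f/f library. In null, 5p extended reads stand out at Mir199a-2 (3334 reads) and 5′ flank reads at Mir214 (478 reads), while the f/f bars are almost all mature 5p and mature 3p.

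Reads with 1 to 3 bases at the 3′ end that the hairpin does not encode were counted apart, among reads with the commonest 5′ end and at least 18 encoded bases, and shorter than 36 nt. Terminal transferases add such U or A bases to miRNAs. On miR-199-3p, 22 of 64 null reads were tailed (34.4%, 22.9 to 47.3), all with T, and 13.0% of 222728 f/f reads (12.8 to 13.1), of which 58.4% had T alone and 29.8% A alone. On miR-199a-5p, 5.60% were tailed in null (5.17 to 6.06) and 7.20% in f/f (7.08 to 7.31). The commonest tailed miR-199a-5p read was an extended form in null, cccagtgttcagactacctgttcaggacT with 110 copies, and a mature form in f/f, cccagtgttcagactacctgttcT with 4772 copies. On miR-214-3p, 6 of 33 null reads were tailed (18.2%, 6.98 to 35.5) and 26.9% of 27375 f/f reads, where A alone made up 55.6% of tails. On miR-214-5p, 6 of 36 null reads were tailed (16.7%, 6.37 to 32.8) and 2.88% of f/f reads. Many miR-199-3p reads with T or TT have the same letters as spliced Dnm3os, described next, and cannot be assigned to a tail. Without them 1 of 43 null reads was tailed (2.33%, 0.0589 to 12.3) and 7.38% of 209302 f/f reads (7.27 to 7.49). This step takes out nearly all null tails, which were T alone, while the f/f tails of A alone stay. The null interval also holds the f/f value, so these counts give no direction between libraries.

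Dnm3os is the primary transcript of Mir199a-2 and Mir214, and reads of it that fit no annotated hairpin were counted next. By the matching rule there were 234 such reads in null and 18150 in f/f, 49.1-fold lower in null (43.1 to 56.1). Almost all of the f/f reads, 18086 (99.6%), and 37 in null (15.8%), fit spliced Dnm3os alone and no stretch of the unspliced transcript. In 2 of the 6 transcripts an exon ends at chr1:162217900, base 18 of mature miR-199-3p, and the next exon starts at 162218021 with 3 bases equal to those of the hairpin followed by T. Every one of the 37 null and 18086 f/f reads ended at that T or 1 T later, and 0 ran 3 or more bases past the shared letters. They have the letters of miR-199-3p with T in place of its last A, or TT, as shown here with the end in capitals.
mature: acagtagtctgcacattggttA
spliced fit: acagtagtctgcacattggttT
The mature read had 30 copies in null and 139031 in f/f, and the read with T had 21 in null and 13175 in f/f. The shared 21 letters without a further base had 1 copy in null and 51825 in f/f. With C in place of the last base there were 0 in null and 740 in f/f, and with G 0 in null and 352 in f/f. Spliced Dnm3os and miR-199-3p with an added T have the same letters and cannot be told apart here.

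Reads of the unspliced transcript that fit no other gene numbered 167 in null (26.5 CPM) and 27 in f/f (2.72 CPM), 9.78-fold higher in null (6.48 to 15.3) and 2.25-fold higher (1.49 to 3.51) when scaled to snoRNA and snRNA reads. They were of 41 distinct sequences in null and 17 in f/f. Of 858 mRNA and lncRNA genes with at least 50 reads of their own, 97.3% were more than 2-fold higher in null and 0.117% more than 2-fold lower, with a median log2 ratio of 3.89. Dnm3os stood at 3.29, above 32.1% of them and on the same side as most long transcripts. Within 100 nt of Mir199a-2 there were 85 reads in null and 12 in f/f, within 100 nt of Mir214 19 in null and 6 in f/f, in the first 100 nt of the transcript 31 in null and 2 in f/f, and elsewhere 32 in null and 7 in f/f. Reads of 24 nt or longer were 56.9% in null (49.0 to 64.5) and 22.2% in f/f (8.62 to 42.3). The leading unspliced null reads were the flank reads of Mir199a-2 shown above, and the leading f/f read, acaggattttccacacac, had 0 copies in null and 3 in f/f.

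**Figure D5:**
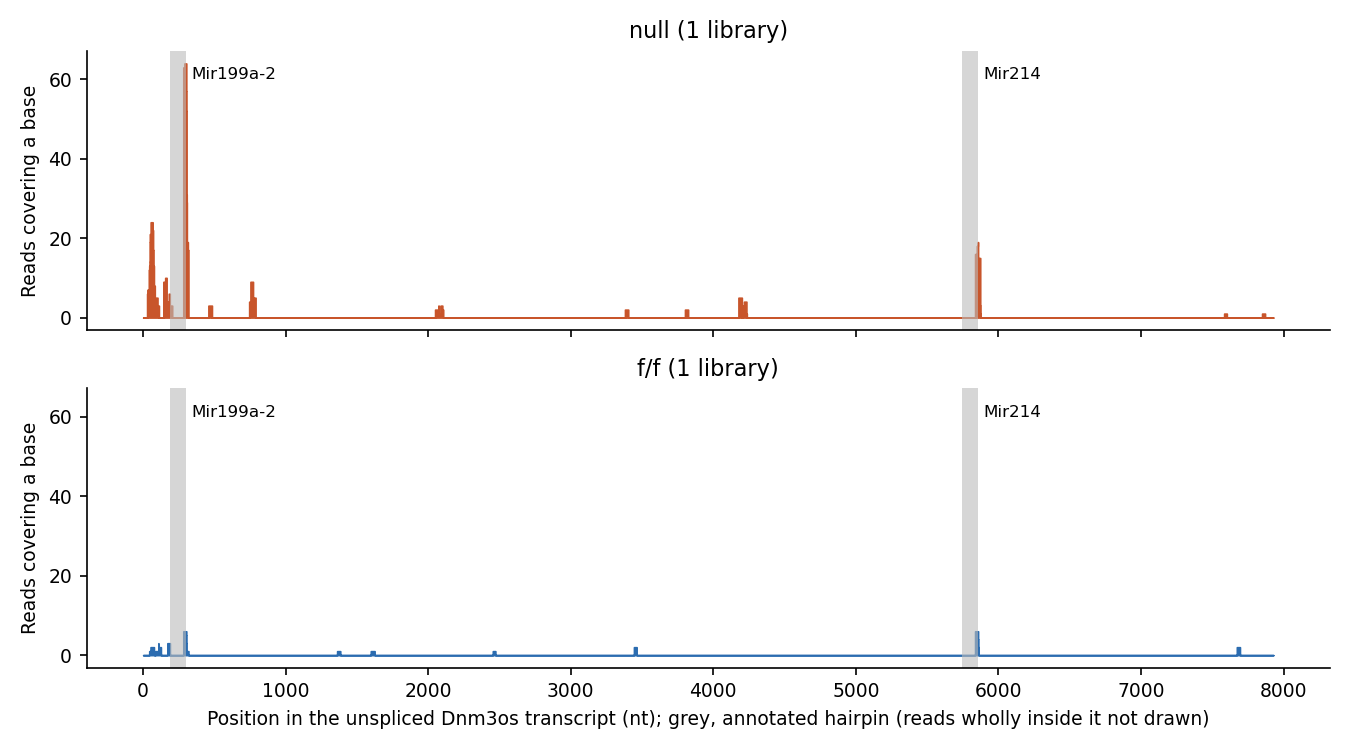
Reads covering each base of the unspliced Dnm3os transcript (7928 nt) in null (top) and f/f (bottom), with the annotated hairpins in grey and reads wholly inside them left out. In null, coverage is highest beside Mir199a-2 and has smaller peaks near the transcript start and beside Mir214.

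Related genes were examined as lists. Of 18 miRNA hairpins typical of fibroblasts, such as Mir21a, Mir143 and Mir145a, 17 had at least 100 reads in both libraries together. All 17 were more than 2-fold lower in null, with a median log2 ratio of -6.67, against 64.4% of 405 hairpins and a median of -2.86. Of the 314 miRNA species with 100 or more reads in f/f, 87.9% were more than 2-fold lower, with a median of -5.22. The 17 are not separate counts: 225533 f/f reads fit both Mir125b-1 and Mir125b-2, and 80420 fit both Mir24-1 and Mir24-2. Mir22, a miRNA abundant in mesenchymal cells, had 355 reads in null and 727253 in f/f. The dynamin genes that the hairpins lie in, which encode GTPases of vesicle scission, had too few fragments to compare: Dnm1 had 6 in null and 1 in f/f, Dnm2 had 6 in null and 5 in f/f, and Dnm3 had 7 in null and 0 in f/f. Among 11 genes made up of reported targets of these miRNAs and Twist1, 1 had enough fragments: Atf4, a transcription factor of bone formation reported as a target of miR-214, had 185 in null and 35 in f/f, 8.35-fold higher in null (5.80 to 12.4). Twist1 had 2 fragments in each library. Among 10 other lncRNA hosts of miRNAs, 1 had enough fragments: Mir17hg had 163 in null and 42 in f/f, 6.13-fold higher in null (4.35 to 8.83). Both genes lay on the side of the 97.3% of long transcripts given above, and fragments of 18 to 36 nt do not measure the level of an mRNA.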

How the data were processed

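The authors deposited raw counts: each library is a list of sequences and of how often each was read. Reads ran from 5 to 36 nt. The genome build was mm9, per the submitters' processing notes; the trimming and alignment tools: not given in the sources used here. Groups came from the genotype label. Reads of 18 nt or longer were matched in sense without mismatch to GENCODE M21 transcripts (GRCm38), the source of all coordinates, together with RefSeq. The arm was set by the hairpin midpoint. CPM used all reads in a file. Counts carry exact Poisson, shares exact Clopper-Pearson and ratios exact conditional intervals (95%). Forms allowed 2 nt at each end. Python 3.11.15 with numpy 2.4.6, scipy 1.17.1 and matplotlib 3.10.9 was used, and the matching and intervals were tested on simulated data.

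All members were described whatever their value. Named besides were the 3 species nearest in log2 ratio to each member with at least 1000 f/f reads, leading sequences per arm and library, and list members; Mir331, Mir206, Mir22 and Mir17hg were singled out after their values were seen. The members, lists and read forms were chosen with earlier results of these data known. Alternatives changed the scale, length window, minimum copy number, matching rule and shared reads.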

Additional observations from a re-analysis of the deposited data

How the results depend on the processing

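Of 93 alternatives for 25 results, 43 stayed within the 95% interval of the reported value, 43 moved and 7 reversed. Ratios below are log2 ratios of null to f/f. Scaled to transcript-matched reads they were -9.23 for miR-199-3p, -1.92 for miR-199a-5p, -1.53 for miR-199b-5p, -5.17 for miR-214-3p, -3.35 for miR-214-5p, -3.04 for the 4 hairpins in sum and -3.86 for Dnm3os outside its hairpins. Scaled to snoRNA and snRNA reads they were -13.10, -5.80, -5.40, -9.05, -7.23, -6.91 and -7.74 in the same order. At 18 to 23 nt they were -4.72 for miR-199a-5p, -4.99 for miR-199b-5p, -7.87 for miR-214-3p and -5.90 for the sum. Matched without the last 3 nt they were -3.59 for miR-199a-5p, -7.20 for miR-214-3p, -7.47 for miR-214-5p and -4.89 for the sum. Without reads of other transcripts they were -5.83 for miR-214-5p and -5.81 for Dnm3os.

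The following settings were chosen after seeing the data. With both ends within 2 nt of the mature ends, the ratios were -4.10 for miR-199a-5p, -8.26 for miR-214-3p and -9.50 for miR-214-5p. With reads that fit only some of the hairpins they were -9.47 for miR-199-3p and -3.53 for miR-199a-5p, and miR-199-3p with the spliced Dnm3os reads was at -10.52. Dnm3os reversed to 2.28 without reads that fit spliced transcripts alone and to 3.29 on unspliced sequence of no other gene. It also reversed, under settings not chosen later, to 1.66 at 24 nt or longer and to 2.001 when matched without the last 3 nt; each of these settings leaves out most reads that end in the T shared with miR-199-3p.

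As differences of null minus f/f in percentage points, the share of miR-199a-5p at 25 nt or longer was 46.3, and that of miR-199-3p was 0.0, since no read of it reached 25 nt; the stretch that all 3 hairpins share is 26 nt, and longer reads of Mir199a-2 alone are counted apart. With reads that fit only some of the hairpins, a setting chosen after seeing the data, the share at 24 nt or longer was 55.8 for miR-199a-5p and 53.4 for miR-199-3p, and the log2 difference of the 5p to 3p ratio of miR-199 was 5.94. At 18 to 23 nt the share at the commonest 3′ end of miR-199a-5p reversed to 7.24, because this window removes reads that run past the mature end. The shares at the commonest 5′ end were -67.1 for miR-214-5p and -36.2 for miR-214-3p, and at the 3′ end of miR-214-3p -31.5. The log2 difference of the 5p to 3p ratio was 6.47 for miR-199 and 2.67 for miR-214 at 18 to 23 nt. Among mature forms it was 6.89 for miR-199 and reversed to -1.25 for miR-214, since the flank reads are left out. Tails of miR-199a-5p differed by -2.08 points with 1 added base only and by -1.59 among reads shorter than 36 nt. Those of miR-199-3p reversed to -5.05 without reads that fit spliced Dnm3os alone, a setting chosen after seeing the data. That setting takes out nearly all null tails, which were T alone, so the sign gives no direction between libraries.

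No paired analysis was possible because each genotype had 1 library. Depth limits miR-199b-5p (10 null reads), the tails of miR-214 in null and the f/f counts of flank and loop reads, and a count of 0 in null allows up to 0.477 CPM.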

Other observations

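Antisense reads of the 4 hairpins numbered 0 in null. In f/f there were 2 on Mir199a-2 and 1 on Mir214. A further set of reads, runs of T with at most 3 other bases, fit Dnm3os and other genes alike and numbered 30 in null and 37 in f/f.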
